A study of Rattus norvegicus and Mus musculus with 17 samples.

Results

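The comparison described here sets mouse liver that carried tumours induced by diethylnitrosamine (DEN) against liver of the same model taken before tumours had formed. Its members are all 4649 genes of the table deposited for this model, of 15824 gene entries in the 3 tables of the series, and its samples are 6 of the 17 libraries. Both groups were male C57BL/6 mice that had received 50 mg/kg of DEN, a carcinogen that hepatocytes convert into a DNA-alkylating agent, at 14 days of age. Both had also received 2 mg/kg of TCPOBOP, an agonist of the constitutive androstane receptor Car (gene Nr1i3) that promotes liver tumours, 30 days later. The livers taken before tumours came from 5 months (n = 3) and the livers with tumours from 8 months (n = 3), so that time and the presence of tumours cannot be told apart. RNA of whole tissue was sequenced. Nothing in the labels ties each library to its own mouse, so p-values measure only the spread between these libraries, which may be technical. The other tables of the series compare rat liver with a transplanted Morris hepatoma and with regenerating liver.

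The mouse liver differs between the sexes. Growth hormone, which males release in pulses, acts through its receptor Ghr and the transcription factor Stat5b. It keeps male-biased genes at high levels, such as the major urinary proteins (Mup), secreted pheromone carriers, and the enzymes Cyp2d9 and Cyp4a12a. DEN tumours of the mouse often carry activating mutations upstream of the ERK kinase cascade, whose output genes include feedback phosphatases and early transcription factors. Hepatocytes also run a stress programme that is set off when unfolded proteins or a lack of amino acids reduce translation, and that raises chaperones, amino acid enzymes and secreted factors.

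Levels are given as RPKM, which is the number of reads scaled to the length of the transcript and to the mapped reads of the library. Fold changes are differences of log2(RPKM + 1), with tumours minus before tumours, ± SE, a scale that understates the changes of low genes. Where a gene is said to go from 3 values to 3 others, these are libraries 1 to 3 before and libraries 1 to 3 with tumours. The table lists only genes that had already passed a deposited p-value of 0.05, which were 20.2% of the protein-coding genes of the mouse annotation, and in 4648 of its 4649 genes (100%) the groups do not overlap. All libraries with tumours are lower in 71.4% of the genes and higher in 28.6%. A gap between the groups is therefore a property of the table, nothing is read from it, and it is not given again for each gene. Genes that are not listed have no value here. Of 3684 genes with at least 1 RPKM in 3 libraries, 658 rose (17.9%) and 1823 fell (49.5%) at an adjusted p below 0.05 by limma with Benjamini-Hochberg adjustment, 67.3% of those tested. Over all tested genes the log2 fold change had a median of -0.56, the value beside which the medians of gene lists are set below.

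A few secreted proteins took up much more of each library with tumours. From RPKM and transcript length, the 20 listed genes with the highest levels held 21.1, 23.4 and 23.3% of the reads before tumours and 37.6, 33.6 and 35.5% with tumours. Albumin (Alb), the main plasma protein, alone held 4.24, 5.08 and 5.75% before and 17.5, 16.1 and 17.1% with tumours, which is most of the gain of the 20 genes. The share left for other genes was smaller in each library with tumours. Rescaling to the reads outside these 20 genes gave 961 genes higher (25.0%) and 977 lower (25.4%), with a median of -0.35. Setting the library medians equal gave 912 (24.8%) and 614 (16.7%) with a median of -0.16, and quantile normalization gave 883 (24.0%) and 589 (16.0%). Both of these used the tested genes alone, which come from a table selected on p where most genes are lower with tumours. Both therefore remove falls and add rises in part by construction, and a fall that they end cannot be read as absent. All 3 scalings kept 644 of the 658 rises and 469 of the 1823 falls. No call changed direction in any of them. All 3 scalings moved the median upward, the second by adding the same amount to every log2 fold change. That a rise was kept under them is therefore largely fixed in advance and adds little. A fall that was kept had to withstand the shift. Where 3 counts are given below as counts under the 3 scalings, they stand in this order. A statement on the 2 rescalings concerns the first and the second, and their effect on a call is given only where it ends the call.

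**Figure D1:**
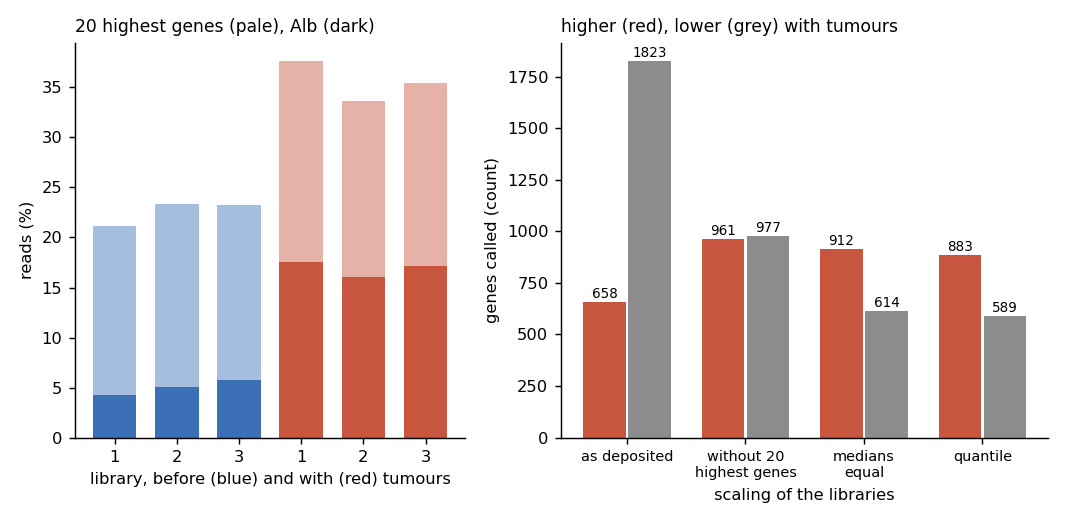
Left, percent of the reads of each of 6 libraries taken by the 20 highest listed genes (whole bar) and by Alb (dark part), with Alb at 4.24 to 5.75% before and 16.1 to 17.5% with tumours. Right, number of genes called higher (red) and lower (grey) with tumours under 4 scalings of the libraries; the lower genes outnumber the higher ones by far only for values as deposited.

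Male-biased liver genes fell together. The gene lists used here and below were chosen with earlier results of these data known, so their shares and counts describe and do not test. Of the 23 genes of a list of male-biased liver genes 21 were listed, against 20.2% of all protein-coding genes, and 18 of the 20 tested fell, with a list median of -3.30 beside -0.56 for all tested genes. The count was 18, 18 and 17 under the 3 scalings, and between 15 and 20 genes of the list were called lower when 1 library at a time was left out. Mup3 (GeneID 17842, chr4:62083476-62087342 on the minus strand of GRCm38, the build of all positions given here), among the most abundant liver transcripts before tumours, had 5870.4, 7876 and 7582 RPKM in libraries 1 to 3 before tumours and 206, 828 and 496 with tumours (log2 fold change -4.00 ± 0.47, adjusted p = 0.0026). Library 2 with tumours kept the most Mup3 and library 1 the least. Mup20, which encodes darcin, the male pheromone that attracts females, had 11391, 14078 and 18782 RPKM in libraries 1 to 3 before tumours and 977, 7400.2 and 3517 with tumours. It did not pass the test (log2 fold change -2.29 ± 0.69, adjusted p = 0.099), and the libraries with tumours were widely spread, again with library 2 highest and library 1 lowest. Elovl3, a fatty acid elongase with a strong male bias, went from 102, 120.4 and 233 RPKM to 1.64, 11.7 and 5.47 (log2 fold change -4.57 ± 0.59, adjusted p = 0.0046). Hsd3b5, a male-specific steroid reductase, went from 42.9, 109 and 116 RPKM to 1.26, 8.39 and 5.98 (log2 fold change -3.97 ± 0.61, adjusted p = 0.0086). The bile acid and oxysterol hydroxylase Cyp7b1 went from 112, 114 and 93.6 RPKM to 5.74, 18.1 and 9.75 (-3.27 ± 0.34). Cyp2d9, the testosterone 16-alpha hydroxylase, had 2026, 1803 and 1588 RPKM in libraries 1 to 3 before tumours and 131, 232 and 182 with tumours (log2 fold change -3.34 ± 0.22, adjusted p = 0.00018). Cyp4a12a, an arachidonic acid hydroxylase driven by androgen, went from 268, 206 and 198 RPKM to 8.60, 21.4 and 19.8 (-3.76 ± 0.32). In these 4 enzymes library 1 was the lowest with tumours and library 2 the highest. The Hsd3b5 call was lost when library 3 with tumours was left out (adjusted p = 0.06). Slco1a1, an organic anion uptake transporter of male liver, changed by -3.09 ± 0.42, and Nudt7, a peroxisomal coenzyme A hydrolase, by -2.94 ± 0.20. The exception was Serpina12, the secreted serpin vaspin, which rose from 50.1, 82.3 and 55.8 RPKM to 289, 138 and 234 (log2 fold change 1.76 ± 0.30, adjusted p = 0.0075).

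Few female-biased genes were listed, and those moved the other way. Of 29 genes of that list 7 were listed, a share near the 20.2% of all genes, and all 7 were higher with tumours, 4 of the 5 tested being called (median 2.16) and all 5 under each of the 3 scalings. Cyp2a4 (GeneID 13086, chr7:26307169-26315088 on the plus strand), the testosterone 15-alpha hydroxylase of female liver, had 18.1, 246 and 36.1 RPKM in libraries 1 to 3 before tumours and 4606, 1627 and 2525 with tumours (log2 fold change 5.58 ± 0.93, adjusted p = 0.012). Abcd2, a peroxisomal fatty acid transporter, rose from 2.33, 2.34 and 1.65 RPKM to 9.73, 14.7 and 14.5 (log2 fold change 2.16 ± 0.18, adjusted p = 0.00039). Cyp39a1, an oxysterol hydroxylase, went from 6.08, 3.52 and 10.6 RPKM to 32.7, 19.8 and 29.6 (log2 fold change 1.95 ± 0.35, adjusted p = 0.013). Cyp2c40 rose from 0.544, 0.774 and 1.50 RPKM to 25.0, 5.84 and 23.1 (log2 fold change 3.10 ± 0.51, adjusted p = 0.011), while the nuclear receptor cofactor Trim24 changed by 0.60 ± 0.19 (adjusted p = 0.085) and did not pass. The female-specific Cyp2b9, Cyp2b13, Cyp3a41a, Sult2a1 and Cux2 were not listed. Without library 3 with tumours only Abcd2 of the list was still called. The adjusted p of Cyp2a4 became 0.13 and that of Cyp2c40 0.069, and the Cyp39a1 call was also lost without library 1 before tumours (adjusted p up to 0.059 without either).

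**Figure D2:**
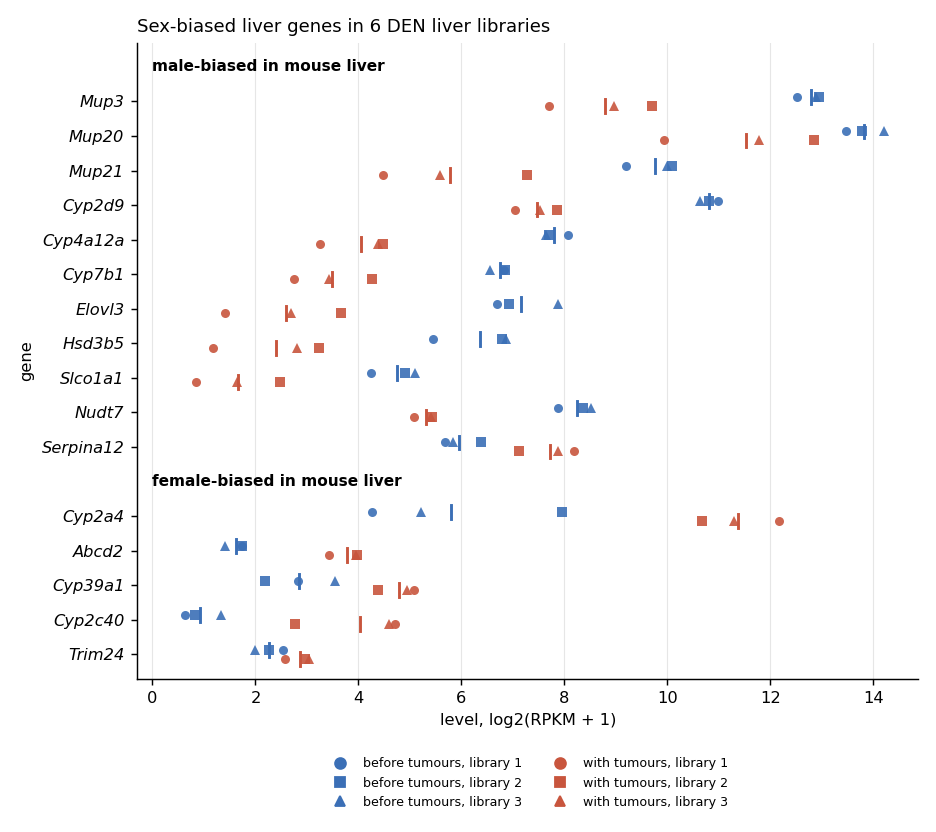
Level of 11 male-biased and 5 female-biased liver genes, as log2(RPKM + 1), in each library before (blue) and with (red) tumours, with a bar at the mean of 3 libraries. Among the male-biased genes Serpina12 alone lies higher with tumours, and library 2 with tumours (red squares) is the nearest to the blue points in Mup3, Mup20 and Mup21.

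The Mup and the Cyp2c families each hold some near-identical copies and others, such as Mup3 or Cyp2c29, that share few or no long stretches with those compared here. How far single copies can be read apart depends on their sequences. The following stretches of 90 coding bases, from 1 exon each of the reference transcripts (GENCODE M21, build GRCm38), were chosen as those with the most differences between the copies shown. Capitals in the first line of a set mark bases that differ in any other copy, and capitals in the other lines mark bases that differ from the first line. The Mup set, from exon 2, is shown because Mup17 and Mup11 are nearly the same where Mup3 differs at many bases.
Mup17 (chr4:61595233-61595322, minus strand): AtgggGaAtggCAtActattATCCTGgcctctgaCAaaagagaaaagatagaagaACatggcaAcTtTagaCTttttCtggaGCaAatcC
Mup11 (chr4:60661770-60661859, minus strand): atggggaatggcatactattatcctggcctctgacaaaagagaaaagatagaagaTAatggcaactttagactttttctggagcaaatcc
Mup3 (chr4:62086840-62086929, minus strand): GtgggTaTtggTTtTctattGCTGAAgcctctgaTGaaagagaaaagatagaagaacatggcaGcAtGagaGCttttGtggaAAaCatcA
The Cyp2c set, from exon 6, sets 3 genes that fell beside Cyp2c40, which rose.
Cyp2c54 (chr19:40047556-40047645, minus strand): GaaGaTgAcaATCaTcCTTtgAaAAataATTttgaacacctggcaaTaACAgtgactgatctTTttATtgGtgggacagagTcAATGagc
Cyp2c50 (chr19:40096717-40096806, plus strand): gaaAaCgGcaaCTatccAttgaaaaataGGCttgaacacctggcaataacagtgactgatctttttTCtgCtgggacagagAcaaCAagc
Cyp2c37 (chr19:40000418-40000507, plus strand): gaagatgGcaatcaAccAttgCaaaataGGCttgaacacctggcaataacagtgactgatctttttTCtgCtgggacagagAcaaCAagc
Cyp2c40 (chr19:39786811-39786900, minus strand): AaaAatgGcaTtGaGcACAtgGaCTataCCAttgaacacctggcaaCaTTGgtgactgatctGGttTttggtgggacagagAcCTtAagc
The Cyp2a set, from exon 4, sets Cyp2a4 beside its close copy Cyp2a5, which was not listed.
Cyp2a4 (chr7:26308970-26309059, plus strand): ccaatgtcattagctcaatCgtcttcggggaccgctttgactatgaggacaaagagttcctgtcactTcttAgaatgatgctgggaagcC
Cyp2a5 (chr7:26837133-26837222, plus strand): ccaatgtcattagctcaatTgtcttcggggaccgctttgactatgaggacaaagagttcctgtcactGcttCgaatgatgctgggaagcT
Over the whole coding sequence 61.9% of the 50-base stretches of Mup17 occur unchanged in Mup11 and none in Mup3. Of those of Cyp2c54, 18.6% occur in Cyp2c50, 17.1% in Cyp2c37 and none in Cyp2c40 or Cyp2c68. Of those of Cyp2c40, 47.7% occur in Cyp2c69 and 35.5% in Cyp2c68. Cyp2a4 and Cyp2a5 differ at 23 of 1482 coding bases and share 38.2% of such stretches. The authors' rule for reads that match several copies is not given in the sources used here, so values of single Mup copies, of Cyp2c37, Cyp2c50 and Cyp2c54, of Cyp2c40 and Cyp2c68, and of Cyp2a4 are uncertain, while the opposite directions of Cyp2c40 and Cyp2c54 concern sequences with no such stretch in common.

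Across the Mup family 17 of 22 protein-coding genes were listed, all lower with tumours, and 14 of the 15 tested fell, with a median of -4.46 and the same count under each of the 3 scalings. The genes are in part those of the male-biased list. Their summed level was 27258, 41909 and 45227 RPKM before and 1379.6, 8624 and 4792 with tumours. Mup20 made up most of what was left in library 2 with tumours. Mup17 went from 3996, 8392 and 8338 RPKM to 45.7, 23.8 and 213 RPKM (log2 fold change -6.70 ± 0.78, adjusted p = 0.003). Mup11, with which Mup17 shares most stretches, went from 1936, 4029 and 1421 RPKM to 38.8, 29.0 and 123 (-5.40 ± 0.60). In both of these library 3 with tumours kept the most, whereas Mup3, Mup20 and Mup21 were highest in library 2. Mup5, which shares at most 1.43% of its stretches with Mup17, Mup11, Mup3 or Mup20, went from 5.65, 6.67 and 8.46 RPKM to 0, 0 and 0.0563 (log2 fold change -2.94 ± 0.15, adjusted p = 7.8e-05).

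Enzymes of drug and steroid metabolism fell in family after family, with a few members going the other way. Of 46 listed genes of cytochrome P450 families 1 to 4, 41 were tested, 32 fell and 6 rose (median -1.88), against 29, 23 and 21 lower and 7, 7 and 7 higher under the 3 scalings. Without library 1 before tumours 21 fell. In Cyp2c, 9 of 11 tested fell, and without library 3 with tumours 4 of them were called. Cyp2c55, an enzyme of arachidonic acid metabolism, had 507, 312 and 251 RPKM in libraries 1 to 3 before tumours and 1.17, 9.54 and 0.889 with tumours (log2 fold change -6.61 ± 0.67, adjusted p = 0.0019). Cyp2c29 went from 5379.7, 3296 and 2413 RPKM to 17.7, 714 and 43.2 (log2 fold change -5.38 ± 1.26, adjusted p = 0.041), and its call was lost under quantile normalization and when any library but library 2 with tumours was left out (adjusted p up to 0.33). Cyp2c66 had 2.86, 4.05 and 1.57 RPKM before tumours and no reads in all 3 libraries with tumours (adjusted p = 0.0017). It was the single listed gene with no reads in one group and at least 1 RPKM in every library of the other.

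The P450 genes that rose were Cyp2a4, Cyp2c40, Cyp2c68, Cyp2d26, Cyp4a31 and Cyp4f16. Cyp4a31, of the fatty acid omega-hydroxylase family whose male-biased members Cyp4a12a and Cyp4a12b fell, had 1.14, 2.38 and 1.12 RPKM in libraries 1 to 3 before tumours and 24.1, 31.4 and 26.3 with tumours (log2 fold change 3.50 ± 0.20, adjusted p = 9.2e-05), 1 of the 8 rises with the largest moderated t. Cyp2d26 went from 499.6, 533 and 505 RPKM to 1150.5, 795 and 1276 (1.04 ± 0.20). Cyp2c68 went from 78.6, 75.7 and 73.4 RPKM to 136, 141 and 119 (0.79 ± 0.14). All 6 were called higher under each of the 3 scalings as well. The Cyp2d26 call was lost when library 1 before tumours was left out (adjusted p = 0.056) and those of Cyp2a4 and Cyp2c40 without library 3 with tumours (adjusted p = 0.13 and 0.069).

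Among conjugating enzymes all 7 tested cytosolic sulfotransferases fell (median -3.17), under each of the 3 scalings too. Sult2a7 (GeneID 638251, chr7:14465051-14494230 on the minus strand), of the family that sulfates steroids and bile acids, had 29.5, 29.3 and 32.1 RPKM in libraries 1 to 3 before tumours and 0.119, 0.641 and 0.301 with tumours (log2 fold change -4.55 ± 0.16, adjusted p = 1.9e-05), the largest moderated t of any gene. Sult1e1, the oestrogen sulfotransferase, went from 29.0, 16.4 and 25.0 RPKM to 1.40, 1.21 and 0.0975 (-3.73 ± 0.33). All 11 listed UDP-glucuronosyltransferases fell as deposited (median -1.82) and 9, 9 and 6 under the 3 scalings. Srd5a1, the steroid 5-alpha reductase, went from 64.4, 61.7 and 61.2 RPKM to 3.63, 6.72 and 4.78 (log2 fold change -3.42 ± 0.19, adjusted p = 9.2e-05).

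TCPOBOP acts on Car, and all 11 listed genes of a list of Car targets and partners fell (median -2.21), with 9, 9 and 5 lower under the 3 scalings and 5 without library 1 before tumours. Falls of this size were not particular to that list. All 20 tested perivenous and beta-catenin genes fell (median -2.17), and 20, 16 and 19 under the 3 scalings. All 15 tested genes of bile acid synthesis and transport fell (median -2.10), and 14, 12 and 10 under the 3 scalings. The part of Car was not tested. Cyp3a11, a main drug-oxidising enzyme, had 6802, 5214 and 4281 RPKM in libraries 1 to 3 before tumours and 60.8, 794 and 139 with tumours (log2 fold change -4.81 ± 0.86, adjusted p = 0.016), and its call was lost when library 1 or 2 before tumours or library 3 with tumours was left out (adjusted p up to 0.16). The carboxylesterase gene Ces2a went from 1272, 1004 and 720.5 RPKM to 43.1, 72.5 and 22.4 (log2 fold change -4.52 ± 0.42, adjusted p = 0.001). Gstm3, a glutathione transferase, went from 5632, 3771 and 2334 RPKM to 1710.2, 657 and 447 (log2 fold change -2.21 ± 0.53, adjusted p = 0.043), and its call was lost under all 3 scalings and when any library but library 1 with tumours was left out (adjusted p up to 0.15). Cyp2c29, Cyp2c37, Cyp2c50, Cyp3a11, Gstm3 and Por all lay lowest in library 3 among the libraries before tumours, so that the group before tumours was itself uneven here. Nr1i3, which encodes Car, changed by -1.14 ± 0.28 (adjusted p = 0.035) and lost its call under all 3 scalings and when any library but library 2 with tumours was left out (adjusted p up to 0.14). Cyp2b10, the usual reporter gene of Car, was not listed.

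Of the 9 listed genes of the growth hormone and IGF axis 6 fell and 2 binding proteins rose. Ghr, the growth hormone receptor, had 98.9, 95.5 and 91.5 RPKM in libraries 1 to 3 before tumours and 20.6, 35.5 and 12.9 with tumours (log2 fold change -2.12 ± 0.31, adjusted p = 0.0046). Igfals, the acid-labile subunit that holds IGF1 in serum, went from 52.7, 51.4 and 47.4 RPKM to 5.32, 24.5 and 8.87 (log2 fold change -2.14 ± 0.47, adjusted p = 0.029). Igf1, the growth factor made by liver under growth hormone, went from 86.4, 82.1 and 70.7 RPKM to 24.0, 36.6 and 8.19 (log2 fold change -1.97 ± 0.48, adjusted p = 0.043). Library 2 with tumours lay highest in all 3. The Igf1 call was lost under all 3 scalings and when library 1, 2 or 3 before tumours or library 1 with tumours was left out (adjusted p up to 0.14). The Igfals call was lost under quantile normalization and when library 1, 2 or 3 before tumours or library 3 with tumours was left out (adjusted p up to 0.15). Igfbp1 (GeneID 16006, chr11:7197782-7202546 on the plus strand), a secreted IGF-binding protein that fasting and stress induce, had 24.2, 40.5 and 15.2 RPKM in libraries 1 to 3 before tumours and 449, 698 and 645 with tumours (log2 fold change 4.52 ± 0.34, adjusted p = 0.00034), and Igfbp6, another IGF-binding protein, rose by 1.77 ± 0.36, a call that was lost when library 1 or 3 before tumours or library 3 with tumours was left out (adjusted p up to 0.1). Of the whole list 4, 2 and 3 fell under the 3 scalings, and without library 1 before tumours 3 fell and 1 rose.

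Genes of the unfolded protein and amino acid stress responses were higher with tumours. All 9 listed of 20 were higher and 8 of the 9 tested rose, with a median of 1.38, all 9 under each of the 3 scalings and at least 6 when 1 library was left out. Asns, which makes asparagine and is a target of the transcription factor Atf4, had 3.63, 3.17 and 4.94 RPKM in libraries 1 to 3 before tumours and 41.5, 17.3 and 39.5 with tumours (log2 fold change 2.70 ± 0.33, adjusted p = 0.0027). Trib3, a pseudokinase induced by the same factor, went from 13.5, 10.2 and 6.59 RPKM to 39.7, 69.0 and 55.4 (log2 fold change 2.34 ± 0.27, adjusted p = 0.0017). Ddit3, the stress transcription factor CHOP, went from 2.75, 4.82 and 6.41 RPKM to 23.1, 24.9 and 17.8 (log2 fold change 2.06 ± 0.25, adjusted p = 0.0019). Hspa5, the main chaperone of the endoplasmic reticulum, went from 247, 196 and 308 RPKM to 691, 574 and 716 (log2 fold change 1.41 ± 0.20, adjusted p = 0.0028). Pdia6, a disulfide isomerase, went from 73.5, 88.8 and 99.0 RPKM to 269, 165 and 198 (1.25 ± 0.21). Atf5 went from 155, 133 and 231 RPKM to 474, 408 and 439.7 (1.38 ± 0.21). Among the libraries with tumours, library 2 was the lowest in Asns and Pdia6 and the highest in Trib3. Fgf21, a liver hormone made under amino acid stress and fasting, went from 1.10, 2.53 and 3.11 RPKM to 15.4, 28.2 and 17.5 (log2 fold change 2.73 ± 0.30, adjusted p = 0.0014). Psat1, an enzyme of serine synthesis and 1 of the 12 largest rises, had 0.351, 1.97 and 0.979 RPKM in libraries 1 to 3 before tumours and 36.8, 13.9 and 41.0 with tumours (log2 fold change 3.85 ± 0.45, adjusted p = 0.0029). Atf4, Xbp1, Herpud1 and Calr were not listed.

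Output genes of the ERK cascade rose. Of 19 such genes 10 were listed, all higher, and all 7 tested rose (median 1.27), the same under each of the 3 scalings and at least 5 when 1 library was left out. The rise was not particular to them. Of 33 immediate early genes, a list that also holds Egr1 and Ier3, 12 were listed, all higher. All 11 tested of these rose (median 1.275), the same under each of the 3 scalings. Egr1, an early growth response transcription factor, had 4.57, 4.38 and 3.18 RPKM in libraries 1 to 3 before tumours and 51.5, 40.8 and 62.6 with tumours (log2 fold change 3.37 ± 0.19, adjusted p = 9.2e-05). Dusp5, a nuclear phosphatase that switches ERK off, went from 0.259, 0.430 and 0.438 RPKM to 4.17, 4.35 and 10.1 (log2 fold change 2.30 ± 0.28, adjusted p = 0.0022). Dusp4, another such phosphatase, went from 0.480, 0.602 and 0.496 RPKM to 4.17, 1.95 and 2.26 (1.27 ± 0.20). Ier3, an early response gene, went from 0.959, 1.18 and 1.28 RPKM to 7.82, 6.12 and 8.95 (2.00 ± 0.15). Spred1, an inhibitor of Ras signalling, changed by 0.76 ± 0.13 and the Ets transcription factor Etv5 by 0.78 ± 0.20, the latter losing its call when any library but library 2 with tumours was left out (adjusted p up to 0.15). The low genes Spry2 and Etv4 were listed as higher and were not tested, and Dusp6, Spry4, Phlda1 and Fosl1 were not listed.

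**Figure D3:**
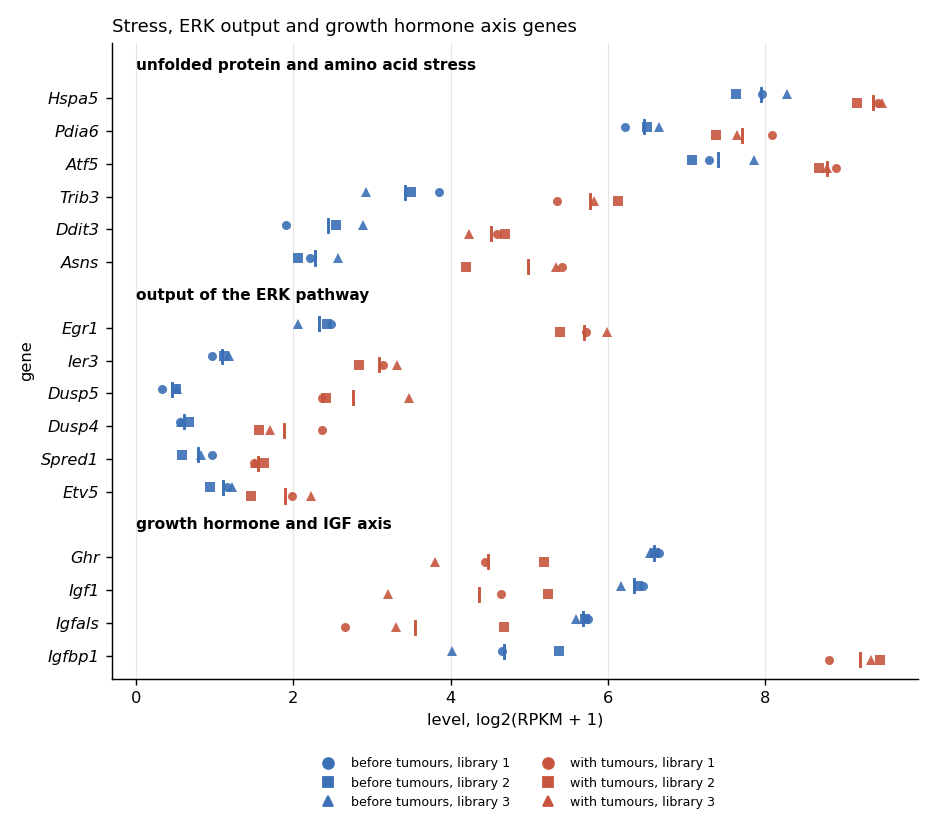
Level of 16 genes, as log2(RPKM + 1), in each library before (blue) and with (red) tumours, with a bar at the mean of 3 libraries, for stress genes, ERK output genes and the growth hormone and IGF axis. Stress and ERK genes lie higher with tumours, Ghr, Igf1 and Igfals lower, and Igfbp1 shows the widest gap of the 16.

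Secreted hepatocyte proteins were split in their directions. Of 10 listed plasma carrier proteins 8 rose and none fell (median 1.36), and 9 rose under each of the 3 scalings. Alb went from 20865, 24973 and 28261 RPKM to 86115, 78943 and 84182 (log2 fold change 1.76 ± 0.17, adjusted p = 0.00061), and quantile normalization, which ties the highest genes of all libraries to 1 value, ended its call. Ahsg, the carrier fetuin-A, had 5127, 5391 and 5205 RPKM in libraries 1 to 3 before tumours and 23303, 19194 and 16792 with tumours (log2 fold change 1.90 ± 0.17, adjusted p = 0.00047). Trf, the iron carrier transferrin, went from 3938, 4849 and 5139 RPKM to 12202, 11807 and 17161 (1.55 ± 0.20). Serpina7, the thyroxine carrier, went from 9.77, 12.2 and 11.4 RPKM to 40.0, 68.4 and 33.2 (1.93 ± 0.25). The retinol carrier Rbp4 changed by -0.43 ± 0.16 (adjusted p = 0.16). Of the apolipoproteins 4 of 10 rose and 5 fell as deposited, against 4, 4 and 5 higher and 1, 1 and 1 lower under the 3 scalings, and 1 fell without library 2 before tumours. Apoc2, the cofactor of lipoprotein lipase, rose from 560.1, 1027 and 543 RPKM to 6065, 2845 and 6318 (log2 fold change 2.81 ± 0.37, adjusted p = 0.0029). Apoa4, a lipoprotein of fat-loaded liver and gut, went from 714, 795 and 509 RPKM to 1802, 3308 and 4484 (2.17 ± 0.33). Apoa1, the main protein of high-density lipoprotein, went from 14236, 17017 and 19362 RPKM to 46656, 39650.0 and 39215 (1.32 ± 0.18). Apoa2, its partner in the same particle, went from 18837, 23264 and 19943 RPKM to 9499, 12294 and 7441 (log2 fold change -1.11 ± 0.21, adjusted p = 0.011), a call that was lost under the 2 rescalings and when library 2 before tumours was left out (adjusted p = 0.057). Apoa5, an activator of triglyceride clearance, fell by 1.40 ± 0.19 on the log2 scale.

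The copies of the protease inhibitor genes Serpina1 and Serpina3 also differed in direction. Serpina1b went from 8777, 9632 and 7483 RPKM to 17264, 11597 and 15336 (log2 fold change 0.76 ± 0.20, adjusted p = 0.041). Serpina1d went from 4517, 4348 and 3962 RPKM to 2522, 2148 and 1683 (log2 fold change -1.03 ± 0.18, adjusted p = 0.0086). Serpina3k, a kallikrein inhibitor, went from 6488, 7177 and 7293 RPKM to 1833, 2781 and 1402 (log2 fold change -1.86 ± 0.24, adjusted p = 0.0022). Serpina3n, an acute phase serpin, went from 157, 159.7 and 129.9 RPKM to 266, 319 and 372 (1.09 ± 0.17). Serpina1b lost its call under quantile normalization and when any library but library 2 with tumours was left out (adjusted p up to 0.16), and Serpina1d with medians set equal and under quantile normalization. These families hold close copies, so that the split of reads among them is uncertain.

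Of 18 tested genes of lipid synthesis and lipid droplets 12 fell and 3 rose as deposited (median -0.98), against 9, 7 and 7 lower and 3 higher under the 3 scalings, and 8 fell without library 2 before tumours. Thrsp, a lipogenic protein under carbohydrate and thyroid hormone control, had 370.3, 417 and 483 RPKM in libraries 1 to 3 before tumours and 39.7, 29.9 and 37.2 with tumours (log2 fold change -3.54 ± 0.17, adjusted p = 7.8e-05). Elovl6, a fatty acid elongase, went from 39.8, 31.1 and 35.5 RPKM to 9.38, 7.55 and 9.68 (-1.89 ± 0.15). Me1, which supplies NADPH, went from 85.9, 63.3 and 103 RPKM to 15.0, 21.7 and 21.5 (-2.05 ± 0.22). Fitm1, a lipid droplet protein, went from 37.6, 64.8 and 47.0 RPKM to 4.41, 6.71 and 8.16 (-2.77 ± 0.25). Scd2, a desaturase that is low in adult liver, rose from 2.14, 6.61 and 2.17 RPKM to 63.6, 37.6 and 59.4 (log2 fold change 3.65 ± 0.38, adjusted p = 0.0016), with Fabp4, a fatty acid chaperone of fat cells and macrophages (1.66 ± 0.26), and Fads2, a desaturase of polyunsaturated fat (1.21 ± 0.26). The Fads2 call was lost when library 1 or 2 before tumours or library 1 or 3 with tumours was left out (adjusted p up to 0.076).

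Mitochondrial genes fell by amounts close to the shift of the whole table. Of 47 tested subunits of the respiratory chain 42 fell, with a median of -0.82 beside -0.56 for all tested genes, but 11, 2 and 0 fell under the 3 scalings and 14 without library 2 before tumours. Cox5b, a subunit of cytochrome oxidase, went from 617, 796 and 622 RPKM to 296, 320.5 and 261 (log2 fold change -1.21 ± 0.17, adjusted p = 0.0028), the strongest fall of the list, and its call was lost under quantile normalization. Of 25 mitochondrial ribosomal proteins 13 fell, against 6, 3 and 0 under the 3 scalings and 6 without library 2 before tumours. Of 13 proteasome subunits 5 fell, with a median of -0.56, and all 3 scalings ended these calls. The 6 listed cytosolic ribosomal proteins had log2 fold changes from -0.52 to 1.58, and 3, 2 and 4 of them rose under the 3 scalings.

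**Figure D4:**
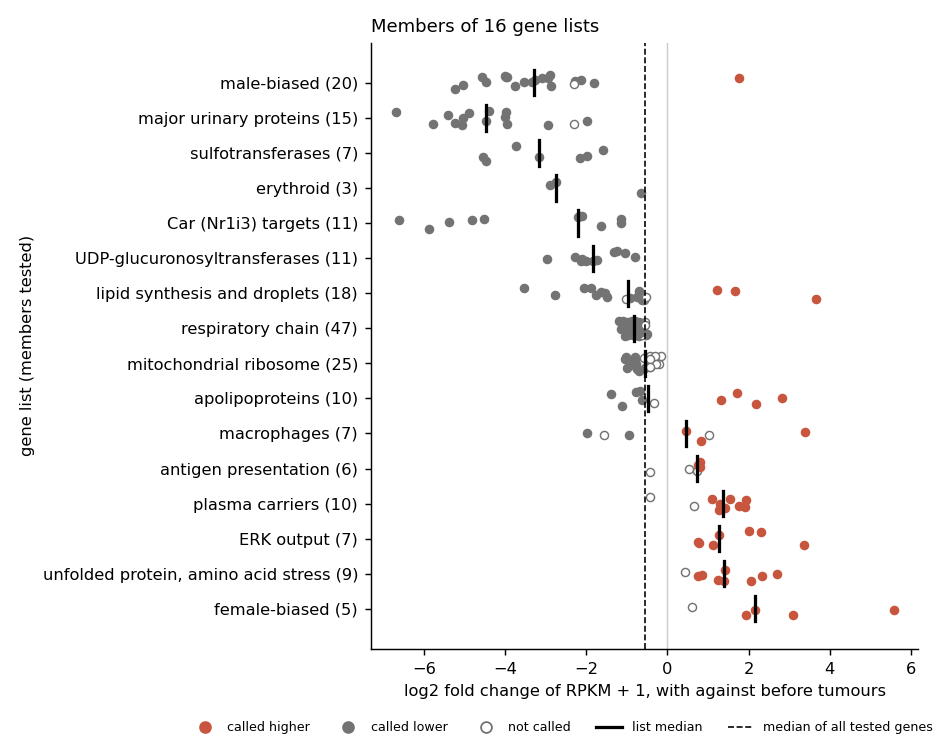
Log2 fold change of each tested member (points) of 16 gene lists, with tumours against before tumours, with list medians (bars) and the median of all tested genes at -0.56 (dashed line). Male-biased, Mup and sulfotransferase genes lie far to the left of that line, respiratory chain and mitochondrial ribosome genes close to it, and stress, ERK output and carrier genes to its right.

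Markers of macrophages, endothelial and matrix cells were listed, and as deposited each of these lists held genes that rose and genes that fell. None of these falls was called by limma under any of the 3 scalings. The tissue had the defining genes of hepatocytes at high levels in all 6 libraries, with 8 of 12 listed and a summed level of 61356, 71696 and 73387 RPKM before and 194780.0, 168184 and 179367 with tumours, while Ttr, Apob, Fgb and Hnf4a were not listed. Of the 8 listed hepatocyte genes 5 rose and 1 fell as deposited, and 6, 6 and 4 rose and 0, 0 and 0 fell under the 3 scalings. Of 13 tested hepatocyte transcription factor genes 12 fell as deposited (median -0.92), and 7, 3 and 4 under the 3 scalings. In bulk tissue fewer cells of a type and less RNA per cell cannot be told apart. Of 24 macrophage genes 9 were listed, with a summed level of 154, 131 and 135 RPKM before and 177, 194 and 235 with tumours. Clec4f, the lectin receptor of resident Kupffer cells, went from 30.2, 31.9 and 39.7 RPKM to 2.82, 14.2 and 10.9 (log2 fold change -1.97 ± 0.49, adjusted p = 0.046). Timd4, their receptor for dead cells, went from 1.84, 1.77 and 2.72 RPKM to 0.147, 1.02 and 0.723 (log2 fold change -0.96 ± 0.22, adjusted p = 0.026), and both lost their calls under all 3 scalings and when library 1, 2 or 3 before tumours or library 3 with tumours was left out (adjusted p up to 0.16), with up to 0.098 for Timd4. Cd14, the coreceptor for bacterial lipopolysaccharide, had 1.74, 3.92 and 1.44 RPKM in libraries 1 to 3 before tumours and 23.1, 30.1 and 48.5 with tumours (log2 fold change 3.38 ± 0.34, adjusted p = 0.0014), and Lyz2, lysozyme of myeloid cells, rose by 0.83 ± 0.18, a call that was lost when library 2 before tumours or library 3 with tumours was left out (adjusted p up to 0.078). Of the 7 tested 3 rose and 2 fell as deposited, 4, 4 and 4 rose and 0, 0 and 0 fell under the 3 scalings, and without library 2 before tumours 1 rose. The part of these cells in the changes of other genes was not tested. Of 11 tested endothelial genes 6 rose and 2 fell as deposited, 6, 6 and 6 rose and 0, 0 and 0 fell under the 3 scalings, and without library 3 before tumours 1 rose. Their summed level was 84.6, 72.3 and 68.9 RPKM before and 81.5, 93.8 and 70.5 with tumours. Of 11 tested stellate and matrix genes 7 rose and 2 fell as deposited, and 8, 8 and 8 rose and 0, 0 and 0 fell under the 3 scalings. The calls of the 2 endothelial and the 2 matrix falls were also lost without library 1 before tumours. The summed level of all 11 listed stellate and matrix genes was 276, 249.6 and 236 RPKM before and 243, 277 and 282 with tumours. Nid1, which encodes the basement membrane protein nidogen, had 3.90, 4.56 and 2.68 RPKM in libraries 1 to 3 before tumours and 29.6, 29.8 and 46.7 with tumours (log2 fold change 2.94 ± 0.22, adjusted p = 0.0003). Of 6 tested antigen presentation genes 3 rose as deposited and 5, 5 and 5 under the 3 scalings. The class II antigen presentation genes H2-Ab1 (0.76 ± 0.18), H2-Eb1 (0.81 ± 0.15) and Cd74 (0.80 ± 0.19) rose, and all 3 of these calls were lost without library 2 before tumours. The class II gene H2-Aa (0.72 ± 0.22, adjusted p = 0.081) and the immunoproteasome subunit gene Psmb10 (-0.42 ± 0.15, adjusted p = 0.15) did not pass. The H2-Ab1 and Cd74 calls were lost when library 2 or 3 before tumours or library 1 or 3 with tumours was left out (adjusted p up to 0.1), with up to 0.11 for Cd74, and that of H2-Eb1 when library 2 before tumours was left out (adjusted p = 0.05).

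Few T and NK cell markers had values. Of 29 T and NK cell genes 2 were listed, Cd8b1 and Klrk1, with a summed level of 0.961, 0.959 and 1.16 RPKM before and 1.86, 0.989 and 2.18 with tumours, while Cd3e and Cd4 were not listed. Klrb1b, a lectin receptor gene known from NK cells, was among the largest rises, at 0.202, 3.12 and 0.372 RPKM in libraries 1 to 3 before tumours and 52.9, 38.5 and 72.7 with tumours (log2 fold change 4.83 ± 0.48, adjusted p = 0.0016). Klrb1b is not on the T and NK cell list. Of the NK genes of that list only Klrk1 had values. Klrk1 was too low to be tested, so its direction is not read here. Which cells Klrb1b came from was not tested. Of 16 bile duct genes Krt23 and Sox9 were listed. Krt23, a keratin of injured and tumour-bearing liver, had 0.306, 0.712 and 0.994 RPKM in libraries 1 to 3 before tumours and 11.8, 11.0 and 10.5 with tumours (log2 fold change 2.88 ± 0.17, adjusted p = 9.2e-05), and Krt7, Krt19 and Epcam were not listed. The 3 listed erythroid genes fell as deposited, and Klf1 lost its call under the 2 rescalings and when library 1, 2 or 3 before tumours or library 3 with tumours was left out (adjusted p up to 0.083). Alas2, the heme synthesis enzyme of red cell precursors, went from 74.1, 79.9 and 67.8 RPKM to 7.21, 15.0 and 6.73 (log2 fold change -2.90 ± 0.27, adjusted p = 0.00067), and Car1, a carbonic anhydrase of red cells (-2.74 ± 0.23).

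Library 2 of either group was set apart from the other libraries of its group in particular genes. Before tumours 5 listed genes had at least 5 RPKM and at least 5 times the level of both other libraries in library 2, and none did so in library 1 or 3. All 5 rose with tumours, but the selection of the table fixed this direction. A gene set apart this far in 1 library before tumours can pass that p-value only if it is higher with tumours. The oncofetal glypican Gpc3 had 0.578, 14.0 and 0.780 RPKM in libraries 1 to 3 before tumours and 73.8, 58.6 and 119 with tumours. The steroid dehydrogenase gene Akr1c18 went from 0.701, 14.3 and 1.54 RPKM to 331, 118 and 335 and the tetraspanin gene Tspan8 from 0.235, 7.64 and 0.998 RPKM to 68.9, 51.0 and 87.6. The prohormone carboxypeptidase gene Cpe went from 0.497, 5.65 and 0.301 RPKM to 36.1, 18.9 and 25.9, and Cyp2a4 had the values given above. The Gpc3 call was lost when any library but library 2 before tumours was left out (adjusted p up to 0.19) and the Cpe call when library 1 before tumours or library 1, 2 or 3 with tumours was left out (adjusted p up to 0.11). Those of Akr1c18, Tspan8 and Cyp2a4 were lost without library 3 with tumours (adjusted p = 0.099, 0.075 and 0.13). Whether the liver of library 2 before tumours already held a lesion was not tested. Without that library the comparison gave 409 genes higher and 938 lower.

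With tumours, library 2 was the nearest of the 3 to the mean before tumours in 63.2% of the genes that fell and 49.8% of those that rose, on the log2(RPKM + 1) scale. Libraries 1 and 3 were nearest in 18.8 and 18.0% of the falls. In 9 listed genes library 2 had at least 5 times the level of both others, and in none had library 1 or 3. These were Cyp2c29, Cyp2c37, Cyp2c50, Cyp2c54, Cyp2c55, Cyp3a11, the acute phase gene Orm3, the carbonic anhydrase gene Car14 and Cib3. Of the 9, 8 were called lower, but here too the selection of the table fixed the direction. A gene set apart this far in 1 library with tumours can be listed only if it is lower with tumours. The Car14 call was lost under all 3 scalings and when any library but library 2 with tumours was left out (adjusted p up to 0.17). Orm3 went from 72.4, 69.0 and 48.6 RPKM to 0.620, 5.73 and 0.922 (log2 fold change -4.52 ± 0.53, adjusted p = 0.0031). All 18 tested mitosis genes rose (median 1.11), 9 rose without library 1 before tumours, and their summed level of 13.3, 17.9 and 13.6 RPKM before and 79.0, 37.9 and 70.9 with tumours was lowest with tumours in library 2. As a description across the 4649 listed genes, which are not independent, the Pearson correlation of log2(RPKM + 1) with the libraries before tumours was 0.89 to 0.90 for library 2, against 0.83 to 0.86 for libraries 1 and 3. Whether the share of tumour tissue differed among these libraries was not tested. Without library 2 with tumours 631 genes were higher and 1962 lower.

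**Figure D5:**
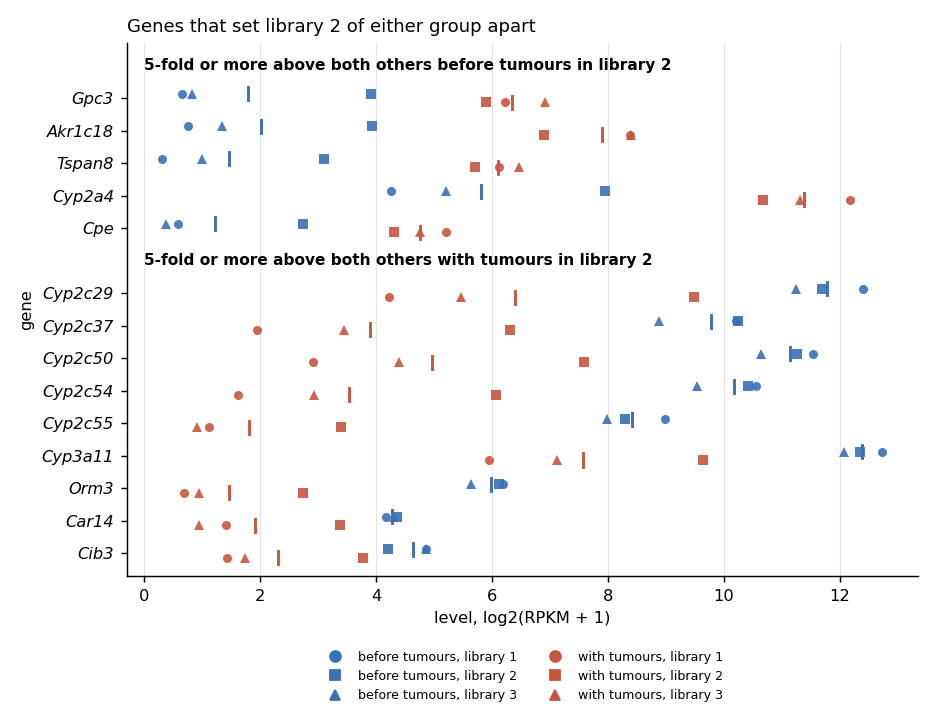
Level, as log2(RPKM + 1), in each library before (blue) and with (red) tumours of the 5 genes set apart in library 2 before tumours and the 9 set apart in library 2 with tumours, with a bar at the mean of 3 libraries. Blue squares lie to the right of the other blue points in the upper set, with Gpc3 at 14.0 RPKM, and red squares to the right of the other red points in the lower set.

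Several of the changes with the largest moderated t concerned genes outside these groups. App, the amyloid precursor protein, had 17.6, 14.0 and 15.6 RPKM in libraries 1 to 3 before tumours and 114, 104 and 82.9 with tumours (log2 fold change 2.59 ± 0.17, adjusted p = 0.00015). Cd63, a tetraspanin of lysosomes and exosomes, had 9.96, 18.9 and 15.4 RPKM in libraries 1 to 3 before tumours and 278, 206 and 178 with tumours (log2 fold change 3.83 ± 0.25, adjusted p = 0.00021). Itga6, the laminin-binding integrin alpha 6, went from 0.199, 0.264 and 0.128 RPKM to 2.86, 2.90 and 2.68 (log2 fold change 1.67 ± 0.11, adjusted p = 0.00017). Slc41a3, a magnesium transporter, went from 0.421, 1.09 and 0.669 RPKM to 14.5, 9.59 and 12.4 (2.93 ± 0.19). The oxysterol-binding protein gene Osbpl3 went from 0.758, 0.716 and 0.434 RPKM to 5.96, 6.77 and 8.26 (2.29 ± 0.15). Each of these 5 rises was at least 4-fold in mean RPKM and kept its call without any single library. Among the falls, Pnliprp1, a lipase-related gene best known from pancreas, had 78.9, 38.0 and 38.9 RPKM in libraries 1 to 3 before tumours and 0.0329, 0.231 and 0 with tumours (log2 fold change -5.53 ± 0.27, adjusted p = 9.2e-05). Kcnk1, a potassium channel, went from 8.08, 7.92 and 5.93 RPKM to 0.139, 0.199 and 0.0213 (-2.88 ± 0.15). Krt4, an epithelial keratin, went from 8.85, 8.42 and 6.13 RPKM to 0.0992, 0.214 and 0.0458 (-2.96 ± 0.15). The acetyltransferase-like gene Cml5 went from 17.0, 23.3 and 22.6 RPKM to 1.13, 1.25 and 1.30 (-3.29 ± 0.15). The adjusted p-values of these 4 ran from 7.8e-05 to 9.2e-05, and none of the 4 lost its call when 1 library was left out.

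The remaining lists described here had few listed members or members called in both directions. Of 12 tested DNA replication and G1/S genes 5 rose and 3 fell as deposited, 7, 8 and 8 rose and 3, 2 and 2 fell under the 3 scalings, and without library 2 before tumours 2 rose. Of 67 histone genes 4 were listed, 3 of which fell as deposited and 2, 0 and 1 under the 3 scalings. Of 7 listed interferon response genes Stat2 and Ifi47 fell as deposited, and under each of the 3 scalings those calls ended and Ifi27l1 rose. Of 20 imprinted genes 3 were listed, namely Zrsr1, Nnat and Mcts2, and 1 of them fell, a call that all 3 scalings ended. Of 15 listed complement genes 8 fell and 1 rose, with 4, 3 and 1 lower under the 3 scalings and 3 without library 2 before tumours, and of 9 listed NRF2 targets 3 fell and 1 rose, with 2, 2 and 1 lower under the 3 scalings.

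The rat tables allow only directions to be set beside these, since each table was normalized on its own and holds selected genes of another species. Of the 658 genes that rose in DEN liver 421 (64.0%) shared a symbol with a gene of the Morris hepatoma table, and by the authors' deposited table, of these, 380 (90.3%) were higher in the hepatoma, beside 87.8% of all genes of that table. Of the 1823 that fell 897 (49.2%) were found there, and of these, by the authors' deposited table, 379 (42.3%) were lower in the hepatoma, beside 12.2% of all its genes. Most of the 897, namely 518 (57.7%), were higher in the hepatoma by that deposited table, beside 87.8% of all its genes. In the authors' deposited table for regenerating liver 150 of the 658 (22.8%) and 188 of the 1823 (10.3%) were found. By that deposited table of the authors 146 of the 150 (97.3%) were higher in regenerating liver and 13 of the 188 (6.91%) were lower, beside 93.9 and 6.12% of all genes of that table. These shares were not tested.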

How the data were processed

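Per the labels' protocols, liver RNA was extracted from frozen tissue and sequenced on standard Illumina libraries. The aligner, the genome build, the counting and the treatment of reads that match several copies are not given in the sources used here. For these 6 libraries the authors deposited a table with 1 value per gene and library and no unit in its header. From its values these are RPKM as the authors computed them, with 0.001 standing for no reads, and they were read here as 0 where they equal 0.001. The deposited log2 ratio and the deposited p-value per gene are the authors' own: the ratio equals that of the group means within 0.01 in all 4649 genes, and the largest p-value is 0.049997, so only genes past 0.05 are listed. The header of the p-value names Holm, yet in all 4649 genes it equals that of an unadjusted t-test within 1%. The total count per library is unknown. Low RPKM values share a common step in only 13 to 36 genes per library, too few to settle it.

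The fit used log2(RPKM + 1) in limma 3.58.1 (R 4.3.3) with trend and robust variances, on genes with at least 1 RPKM in 3 libraries, 3 libraries against 3 and no covariate. P-values are two-sided. Because the table was selected on p, the Benjamini-Hochberg adjustment counted all 21951 protein-coding genes of GENCODE M21 as tests. Tested on simulated data put through that selection, the fit made more false calls than its threshold permits, and its adjusted p-values can therefore be too low. Genes were matched to that annotation by symbol (4360) or gene ID (253), and 36 were not matched. Read shares and the rescaling without the 20 highest genes used its transcript lengths, which may differ from the authors'. Sequences are coding bases of its transcripts on GRCm38, since mouse proteins and promoters were not used here. The named genes were the 12 largest changes in each direction, the 8 with the largest moderated t in each direction, the leading members of each list, genes with a mean of at least 5000 RPKM, genes set apart in library 2 before tumours and genes with no reads in 1 group. Other genes named, and those set apart in library 2 with tumours, were chosen after their values were seen. The members and the lists were chosen with earlier results of these data known. Alternatives were another pseudocount, 2 other filters, 3 scalings, a replicate block, limma without trend and robust variances, another number of tests, and leaving out each library. Figures were drawn with matplotlib 3.10.9.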

Additional observations from a re-analysis of the deposited data

How the results depend on the processing

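As reported, 658 genes rose and 1823 fell. Requiring 5 RPKM in 3 libraries, which tests fewer genes, gave 289 and 1072. The falls came to 614 with library medians set equal, 589 under quantile normalization and 977 on the reads outside the 20 highest genes, and the rises stayed within 1.5 times their number. Leaving out 1 library at a time, which also leaves fewer samples, gave 409 to 631 rises and 922 to 1962 falls. The falls came to 922 and 938 without library 1 or 2 before tumours and to 1093 without library 3 with tumours, and the rises to 409 without library 2 before tumours. Of the 2481 calls, 1138 held in all 6 of these fits. A pseudocount of 0.1, no filter on low values, the plain limma fit and an adjustment over the tested genes alone moved both counts by less than 1.5 times. None of these settings turned a called gene the other way. Among named genes that were not called, the log2 fold change changed sign with library medians set equal in Mx2 (0.033) and Rpl7l1 (0.058), and under quantile normalization in Bst2 (0.069), Irf9 (0.014), Psmb10 (0.134), Rpl7l1 (0.201) and Rps2 (0.529). The cause was not tested. The same replicate numbers occur in both groups and were not treated as pairs. Deviations of same-numbered libraries from their group means correlated at -0.085, -0.159 and -0.022, and those of differently numbered libraries at -0.117 to 0.162. With 3 libraries in each group such correlations cannot decide whether the numbers pair the libraries. With the number as a replicate block 536 genes rose and 1436 fell. The depth of each library is not known, so no counting interval is given, and genes that are not listed cannot be read as unchanged.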
